A study of Homo sapiens with 6 samples.

Results

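Messenger RNA levels of ATF4, its targets and the cytosolic tRNA synthetases were examined in Cisplatin-treated HK-2 cells after silencing of NAT10. The 39 genes comprised ATF4 with its targets (20 genes) and the synthetases (19 genes), and were listed by name. A listed gene was kept when it had at least 10 counts in 3 or more of the 6 libraries. All 39 listed genes passed, out of 20127 genes that passed the same rule and 62754 genes in the count table.

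HK-2 is an immortalised human proximal tubule epithelial line. RNA sequencing compared Cisplatin-treated cells that received negative control siRNA (CP+siNC, 3 libraries) with Cisplatin-treated cells that received NAT10 siRNA (CP+siNAT10, 3 libraries). Both groups carried Cisplatin, no Cisplatin-free library was analysed here, and Cisplatin dose and time are stated in the methods of the study but not in the sample labels. The comparison therefore addressed the effect of NAT10 siRNA in the presence of Cisplatin in 1 cell line. Library totals were 19321665, 21602988 and 19464027 counts in CP+siNC and 20793709, 21531774 and 25192736 counts in CP+siNAT10. Whether the libraries came from separate cultures was not stated, so p-values measured only the spread between these samples, which may be technical.

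ATF4 is the main transcription factor of the integrated stress response. When a stress kinase phosphorylates the translation factor eIF2, general protein synthesis slows while ATF4 mRNA is translated more efficiently, and ATF4 then induces genes for amino acid synthesis, amino acid uptake and tRNA charging. Cytosolic tRNA synthetases attach each amino acid to its tRNA, and several of them sit in a shared multi-synthetase complex. In the kidney the pathway is known from tubular cells under endoplasmic reticulum, nutrient or toxic stress.

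NAT10, the targeted acetyltransferase, stood at 75.8, 71.4 and 73.2 CPM (counts per 1e6 counts, scaled to TMM-adjusted library size) in CP+siNC and at 41.3, 40.5 and 42.4 CPM in CP+siNAT10. Every CP+siNAT10 library lay below every CP+siNC library. For NAT10 the log2 fold change was -0.82 (SE 0.0426, adjusted p = 2.79e-15, edgeR quasi-likelihood test). Here and below, fold changes are CP+siNAT10 over CP+siNC, ± denotes the SD of 3 libraries, and a gene is said to have risen or fallen only when its adjusted p was under 0.05.

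The epithelial keratin KRT8 was abundant in both groups, at 1455 ± 21.1 CPM in CP+siNC and 1450 ± 18.7 CPM in CP+siNAT10. Of the other epithelial markers, KRT18 fell from 346 ± 6.00 to 269 ± 7.24 CPM (log2 fold change -0.36, adjusted p = 3.79e-10), EPCAM rose from 15.5 ± 1.12 to 19.3 ± 1.65 CPM (0.31, adjusted p = 9.02e-04) and KRT19 did not pass (177 ± 5.00 and 176 ± 0.503 CPM, adjusted p = 0.942). Of the 10 proximal tubule markers, the most abundant was the brush border enzyme GGT1, at 33.2 ± 0.177 CPM in CP+siNC and 27.4 ± 1.92 CPM in CP+siNAT10, where it fell (log2 fold change -0.28, adjusted p = 9.92e-05). The glucose transporter SLC5A2 rose from 9.30 ± 0.864 to 11.5 ± 0.104 CPM (0.31, adjusted p = 0.00363). Of the 4 proximal tubule markers that could be tested, 1 rose, 1 fell and 2 did not pass. Several defining markers of the differentiated proximal tubule were near 0 and too scarce to test, and SLC22A6 had no count in any library. The endocytic receptor LRP2 was at 0.0156 CPM in CP+siNC and 0.0311 CPM in CP+siNAT10. CUBN was at 0.103 and 0.244 CPM and ANPEP at 0.0860 and 0.200 CPM, and for each of these the groups overlapped. The phosphate transporter SLC34A1, at 0.220 and 0.307 CPM, and HNF4A, at 0.0835 and 0.363 CPM, were higher in every CP+siNAT10 library. Summed over the 10 markers, the level was 45.8, 46.2 and 44.3 CPM in CP+siNC and 43.7, 39.7 and 42.9 CPM in CP+siNAT10. The epithelial cadherin CDH1 was also near 0, at 0.0510 CPM in CP+siNC.

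The 3 immune markers summed to 208, 198 and 216 CPM in CP+siNC and 288, 265 and 268 CPM in CP+siNAT10, nearly all of it CD68, a lysosomal protein that many cell types express. CD68 rose (log2 fold change 0.40, adjusted p = 7.97e-10). The leukocyte marker PTPRC was at 0.418 ± 0.0521 CPM in CP+siNC and 0.824 ± 0.446 CPM in CP+siNAT10 (log2 fold change 0.96, adjusted p = 0.0411), and the T cell marker CD3E at 0.267 and 0.316 CPM. With DESeq2, 1 of the 2 immune markers tested passed as higher. The 4 fibroblast markers summed to 10.9 ± 0.581 CPM in CP+siNC and 13.8 ± 1.49 CPM in CP+siNAT10, mostly COL1A1, which rose (0.38, adjusted p = 6.22e-04), with COL1A2 and DCN under 0.05 CPM. PDGFRB, too scarce to test, was lower in every CP+siNAT10 library, at 0.352 ± 0.0353 CPM in CP+siNC and 0.133 ± 0.0509 CPM in CP+siNAT10. The 3 podocyte markers summed to 6.34 ± 0.406 and 8.89 ± 1.06 CPM, mostly PODXL, which rose (0.49, adjusted p = 3.93e-04). The 4 endothelial markers summed to 0.258 CPM in CP+siNC and 0.290 CPM in CP+siNAT10, and the 4 markers of other nephron segments to 0.0835 and 0.0858 CPM. The part of the immune, fibroblast and podocyte sums in the results below was not tested.

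The 39 genes moved in both directions. Of the 39, 15 rose, 11 fell and 13 did not pass the test, which is 38.5% higher and 28.2% lower. Over all 19874 genes tested, 21.8% passed as higher and 22.3% as lower. The counts by role below are read beside these shares. The median log2 fold change was 0.02 for the 39 genes and 0.01 for all genes tested. In 16 genes all CP+siNAT10 libraries lay above all CP+siNC libraries and in 10 genes all lay below, while 13 genes overlapped; over all genes tested, 25.7% lay wholly above and 25.7% wholly below. Among the 36 listed genes whose mean reached 10 CPM, 41.7% rose and 27.8% fell, beside 30.7% and 31.1% of all 10076 tested genes at that level, a level chosen after seeing the data.

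With a limit of 1.5-fold added to the adjusted p, 0 of the 39 rose and 0 fell by the edgeR quasi-likelihood test, beside 4.08% and 5.47% of all genes tested. Of the 36 genes averaging 10 CPM or more, 0 rose and 0 fell past the limit, beside 2.2% and 3.6% of tested genes at that level. For the 39 the counts were also 0 and 0 with DESeq2. At an unadjusted p under 0.05 they could only be 0 and 0, since no log2 fold change reached the limit. The log2 fold changes ran from -0.47 for VLDLR to 0.56 for SLC7A5, and the limit lay at 0.585. The count of higher genes became 1 without CP+siNC replicate 2 (ALDH18A1, log2 fold change 0.60), and SLC7A5 crossed the limit without CP+siNC replicate 3 (0.61), CP+siNAT10 replicate 2 (0.61) or CP+siNAT10 replicate 3 (0.61) and with scaling to library size alone (0.60).

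**Figure D1:**
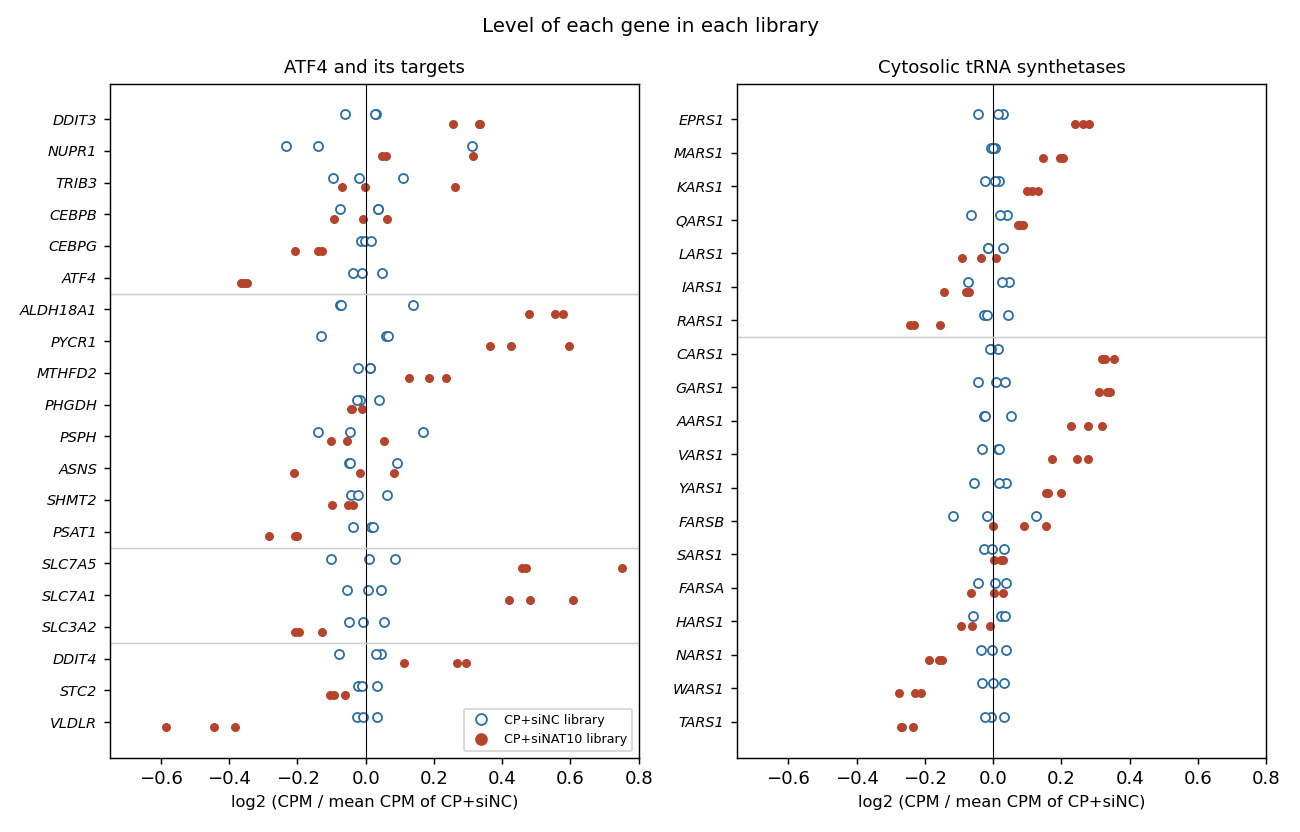
Level of each of the 39 genes in each library, as log2 of CPM over the mean CPM of CP+siNC, with ATF4 and its targets on the left, the tRNA synthetases on the right and grey lines between roles. Open circles are CP+siNC libraries and filled circles CP+siNAT10 libraries; 16 genes have all filled circles to the right of the open ones, 10 have all to the left, and 13 overlap.

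Summed levels hid these opposite movements. ATF4 and its targets summed to 1265, 1262 and 1288 CPM in CP+siNC and to 1246, 1217 and 1233 CPM in CP+siNAT10. The synthetases summed to 2640, 2626 and 2640 CPM in CP+siNC and to 2669, 2673 and 2645 CPM in CP+siNAT10. The CP+siNAT10 sums lay below every CP+siNC sum for the targets and above every one for the synthetases, by -3.11% and 1.02% of the CP+siNC mean. With scaling to library size alone the target sums overlapped between groups (-0.526%), while the synthetase sums stayed apart (3.72%). In bulk RNA, fewer cells of a kind and less RNA per cell cannot be told apart.

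Among the 6 transcription regulators, 1 rose, 2 fell and 3 did not pass. ATF4, at chr22:39519695-39522602 (GRCh38, plus strand), was measured at 261, 246 and 251 CPM in CP+siNC and 199, 196 and 197 CPM in CP+siNAT10. The CP+siNAT10 libraries were nearly equal, and all lay below the lowest CP+siNC library. ATF4 mRNA fell, with a log2 fold change of -0.36 (SE 0.0333, adjusted p = 6.38e-10). These values are of the mRNA and give no measure of ATF4 protein, which is controlled largely at translation.

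DDIT3, which encodes the pro-apoptotic factor CHOP and is a target of ATF4, went the other way. Its level was 36.0, 33.8 and 35.9 CPM in CP+siNC and 44.4, 42.1 and 44.5 CPM in CP+siNAT10. All CP+siNAT10 libraries were above all CP+siNC libraries. The log2 fold change of DDIT3 was 0.31 (SE 0.0478, adjusted p = 4.17e-06). DDIT3 lies at chr12:57516588-57521737 on the minus strand, and its ends overlap the plus-strand genes MARS1, a synthetase, by 982 bases and MBD6 by 1028 bases. It also shares 2769 bases with an unnamed gene on its own strand, ENSG00000285133, which was at 5.03 CPM in CP+siNC and 6.83 CPM in CP+siNAT10. Since the use of strand in counting was not given, the reads of such pairs cannot be told apart.

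TRIB3, a pseudokinase that ATF4 and CHOP induce together, was scarce, at 4.09, 4.72 and 4.31 CPM in CP+siNC and 4.37, 4.16 and 5.25 CPM in CP+siNAT10. The groups overlapped, and only CP+siNAT10 replicate 3 stood above the CP+siNC range. For TRIB3 the log2 fold change was 0.08 (SE 0.127, adjusted p = 0.666), and an interval of 2 standard errors ran from -0.18 to 0.33. Of the C/EBP proteins that pair with ATF4 on DNA, CEBPG fell slightly, from 59.3 ± 0.619 to 53.2 ± 1.56 CPM (log2 fold change -0.16, adjusted p = 0.00278). CEBPB was at 27.7 ± 1.22 and 27.5 ± 1.48 CPM and did not pass (adjusted p = 0.910). NUPR1, a small stress-induced chromatin protein, was the scarcest of the 39 genes at 0.878 ± 0.185 and 0.972 ± 0.105 CPM, and its interval of 2 standard errors, from -0.39 to 0.68, passed the 1.5-fold limit on the higher side.

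Per kilobase of gene length, the regulators covered a wide range. Lengths were those given with the counts, and comparisons between genes depend on them. Whether they match the transcripts of these cells was not tested. In CP+siNC, ATF4 stood at 96.8 ± 2.95 RPKM (CPM per kilobase of gene length), the highest level among the 39 genes, DDIT3 at 27.0 ± 0.971 RPKM, TRIB3 at 1.33 ± 0.0969 RPKM and NUPR1 at 0.159 ± 0.0337 RPKM. Close in RPKM, CEBPB, at 15.1 ± 0.662 RPKM, and CEBPG, at 14.6 ± 0.153 RPKM, did not differ from each other beyond their spread. This holds only per length, with 1839 bases for CEBPB and 4056 for CEBPG. In CPM they stood apart, at 27.7 ± 1.22 and 59.3 ± 0.619.

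Of 8 enzymes of amino acid synthesis, 3 rose, 1 fell and 4 did not pass. ALDH18A1, the enzyme that commits glutamate to proline, was at 25.8, 29.9 and 25.9 CPM in CP+siNC and 39.9, 40.6 and 37.9 CPM in CP+siNAT10. PYCR1, which completes proline synthesis in mitochondria, was at 14.9, 17.0 and 17.0 CPM in CP+siNC and 24.6, 21.9 and 20.9 CPM in CP+siNAT10. For both proline enzymes the CP+siNAT10 libraries were all above the CP+siNC libraries, though replicate 2 stood high within CP+siNC for ALDH18A1 and replicate 1 low within CP+siNC for PYCR1. ALDH18A1 rose with a log2 fold change of 0.53 (SE 0.0557, adjusted p = 5.94e-09), and PYCR1 with 0.46 (SE 0.0700, adjusted p = 3.74e-06). The mitochondrial folate enzyme MTHFD2 also rose, from 82.4 ± 1.18 to 93.5 ± 3.51 CPM (log2 fold change 0.19, adjusted p = 2.21e-04).

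PHGDH, the first enzyme of serine synthesis, was at 130 ± 3.17 CPM in CP+siNC and 127 ± 1.65 CPM in CP+siNAT10 (adjusted p = 0.489). PSPH, the last, was at 11.5 ± 1.28 and 11.2 ± 0.621 CPM (adjusted p = 0.753). PSAT1, between them, passed narrowly as lower, from 8.15 ± 0.177 to 6.95 ± 0.219 CPM (log2 fold change -0.23, adjusted p = 0.0487). Its call was lost without any 1 of the 6 libraries, with adjusted p between 0.0632 and 0.127. The call was also lost with DESeq2 (0.186), scaling to library size alone (0.101), no filter (0.140) or a replicate block (0.0649). The sign of PSAT1 was negative each time. SHMT2, which turns serine into glycine, was at 105 ± 4.07 and 100 ± 2.24 CPM (adjusted p = 0.184).

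ASNS, the asparagine synthetase often used as a readout of ATF4, was at 12.5, 12.6 and 13.8 CPM in CP+siNC and 13.7, 11.2 and 12.8 CPM in CP+siNAT10. The groups overlapped, and CP+siNAT10 replicates 1 and 2 marked nearly the whole range. ASNS had a log2 fold change of -0.04 (SE 0.0813, adjusted p = 0.711), with an interval of 2 standard errors from -0.21 to 0.12. ASNS, at chr7:97851677-97872408 on the minus strand, lies almost entirely, over 20721 bases, within an unnamed gene of the same strand, ENSG00000284707, which was at 18.8 CPM in CP+siNC and 18.9 CPM in CP+siNAT10. Reads of ASNS may have been split between the pair or left uncounted, so its level is uncertain.

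Of the 3 genes of amino acid transport, 2 rose and 1 fell, and with all 6 libraries the largest rise among the 39 genes was among them. SLC7A5, which imports leucine and other large neutral amino acids, was at 39.7, 36.7 and 41.8 CPM in CP+siNC and 66.3, 54.1 and 54.5 CPM in CP+siNAT10. SLC7A1, an importer of arginine and lysine, was at 14.9, 14.3 and 15.3 CPM in CP+siNC and 19.9, 22.6 and 20.7 CPM in CP+siNAT10. Neither transporter overlapped between groups, and replicate 1 was the highest CP+siNAT10 library for SLC7A5. The log2 fold change was 0.56 for SLC7A5 (SE 0.0613, adjusted p = 1.13e-08) and 0.51 for SLC7A1 (SE 0.0669, adjusted p = 3.77e-07). Without CP+siNC replicate 2 the log2 fold change of ALDH18A1 (0.60) was above that of SLC7A5 (0.51). Without CP+siNAT10 replicate 1 that of SLC7A1 (0.54) was above that of SLC7A5 (0.47). SLC3A2, the glycoprotein that SLC7A5 needs to reach the plasma membrane, fell from 97.5 ± 3.41 to 86.3 ± 2.58 CPM (log2 fold change -0.18, adjusted p = 4.18e-04). Transporter and partner thus moved in opposite directions.

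The remaining 3 targets also split, with 1 higher and 2 lower. VLDLR, a lipoprotein receptor induced by ATF4, was at 32.4, 31.2 and 31.5 CPM in CP+siNC and 21.1, 24.3 and 23.3 CPM in CP+siNAT10. DDIT4, an inhibitor of the growth kinase mTORC1, was at 24.5, 26.6 and 26.4 CPM in CP+siNC and 31.7, 27.9 and 31.1 CPM in CP+siNAT10. Groups did not overlap for either gene, but for DDIT4 replicate 2 of CP+siNAT10 lay close to the top of CP+siNC. The log2 fold change of VLDLR was -0.47 (SE 0.0560, adjusted p = 7.05e-08), the lowest of the 39, and that of DDIT4 was 0.23 (SE 0.0570, adjusted p = 0.00175). An antisense transcript of the receptor gene, VLDLR-AS1, overlaps it by 1192 bases and fell too (log2 fold change -0.76, adjusted p = 0.00123). The secreted glycoprotein STC2 passed as lower, from 289 ± 5.87 to 272 ± 4.13 CPM (log2 fold change -0.09, adjusted p = 0.0336). Its call was lost without CP+siNC replicate 3 (adjusted p = 0.133), CP+siNAT10 replicate 1 (0.0830) or CP+siNAT10 replicate 2 (0.122) and with scaling to library size alone (0.235) or no filter (0.126).

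**Figure D2:**
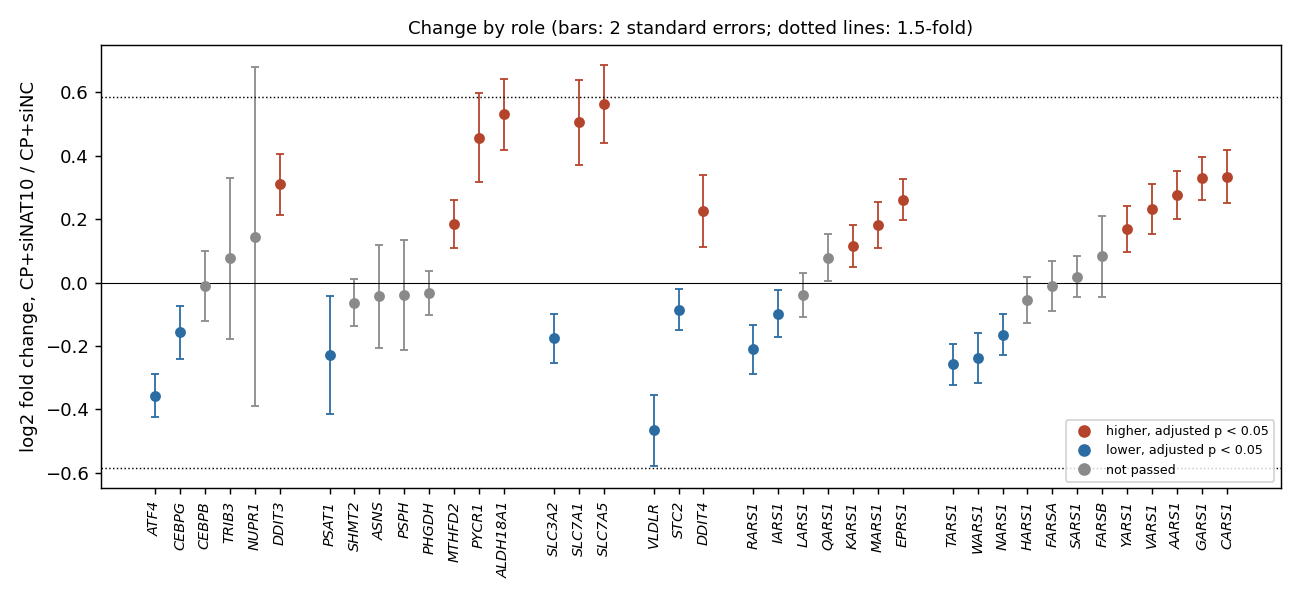
Log2 fold change of CP+siNAT10 over CP+siNC for each of the 39 genes, grouped by role from left to right as regulators, amino acid synthesis, transport, other targets, synthetases of the complex and synthetases outside it, with bars of 2 standard errors. Each role holds genes on both sides of 0, and no point lies beyond the dotted 1.5-fold lines, the extremes being VLDLR at -0.47 and SLC7A5 at 0.56.

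The 19 cytosolic synthetases also moved in both directions, with 8 higher (42.1%), 5 lower (26.3%) and 6 that did not pass. Their median log2 fold change was 0.08. Over all genes tested, 21.8% passed as higher and 22.3% as lower, and among those averaging 10 CPM or more 30.7% and 31.1%. Of the 7 that belong to the multi-synthetase complex, 3 rose, 2 fell and 2 did not pass. EPRS1, which charges both glutamate and proline tRNAs, was at 235, 233 and 224 CPM in CP+siNC and 277, 281 and 273 CPM in CP+siNAT10. RARS1, for arginine, was at 96.7, 97.3 and 101 CPM in CP+siNC and 88.4, 83.1 and 83.7 CPM in CP+siNAT10. EPRS1 was higher in every CP+siNAT10 library and RARS1 lower in every one. The log2 fold changes were 0.26 for EPRS1 (SE 0.0329, adjusted p = 1.55e-07) and -0.21 for RARS1 (SE 0.0381, adjusted p = 4.15e-05).

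Within the complex, the methionine enzyme MARS1 rose from 86.8 ± 0.378 to 98.5 ± 2.16 CPM (log2 fold change 0.18, adjusted p = 1.53e-04). The lysine enzyme KARS1 rose by less, from 151 ± 2.16 to 164 ± 1.89 CPM (0.11, adjusted p = 0.00540). The gene TERF2IP overlaps KARS1 by 871 bases on the opposite strand and rose too, from 129 to 143 CPM (0.15, adjusted p = 0.00109). The glutamine enzyme QARS1 was higher in all CP+siNAT10 libraries, at 102 ± 0.517 against 96.4 ± 3.67 CPM, but did not pass (adjusted p = 0.0860). It passed with scaling to library size alone (log2 fold change 0.12, adjusted p = 0.0105). The leucine enzyme LARS1 did not pass either (183 ± 3.31 and 178 ± 6.23 CPM, adjusted p = 0.387). The isoleucine enzyme IARS1 passed as lower (log2 fold change -0.10, adjusted p = 0.0316) although its groups, at 141 ± 6.26 and 132 ± 3.50 CPM, overlapped. The call of IARS1 was lost without CP+siNC replicate 2 (adjusted p = 0.134), CP+siNC replicate 3 (0.0914) or CP+siNAT10 replicate 1 (0.140), with DESeq2 (0.0640), with scaling to library size alone (0.205) and with no filter (0.0887).

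Of the 12 genes outside the complex, 5 rose, 3 fell and 4 did not pass. CARS1, for cysteine, was at 45.7, 45.0 and 45.0 CPM in CP+siNC and 56.4, 57.9 and 56.8 CPM in CP+siNAT10. GARS1, for glycine, was at 134, 131 and 127 CPM in CP+siNC and 165, 166 and 162 CPM in CP+siNAT10. Libraries within a group were close together for both genes and the groups were well apart. The log2 fold change was 0.33 for CARS1 (SE 0.0421, adjusted p = 1.66e-07) and 0.33 for GARS1 (SE 0.0341, adjusted p = 4.82e-09). The gene GARS1-DT overlaps GARS1 by 14239 bases on the opposite strand and rose as well, from 48.7 to 65.1 CPM (log2 fold change 0.42).

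AARS1, for alanine, rose from 91.5 ± 2.87 to 111 ± 3.43 CPM (log2 fold change 0.28, adjusted p = 6.16e-07). VARS1, for valine, rose from 68.8 ± 1.29 to 80.9 ± 2.99 CPM (0.23, adjusted p = 1.96e-05). YARS1, for tyrosine, rose from 102 ± 3.46 to 115 ± 1.84 CPM (0.17, adjusted p = 3.30e-04). The 3 that fell included the most abundant synthetase. TARS1, for threonine, fell from 381 ± 7.57 to 318 ± 4.45 CPM (log2 fold change -0.26, adjusted p = 1.42e-07). WARS1, for tryptophan, fell from 79.0 ± 1.75 to 67.0 ± 1.55 CPM (-0.24, adjusted p = 1.06e-05). NARS1, for asparagine, fell from 316 ± 8.22 to 282 ± 4.03 CPM (-0.16, adjusted p = 1.41e-04). In each of these 6 genes the groups did not overlap.

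The histidine enzyme HARS1, the serine enzyme SARS1 and the phenylalanine enzyme, built from FARSA and FARSB, did not pass, with log2 fold changes from -0.06 for HARS1 to 0.08 for FARSB. Their groups overlapped.

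Per kilobase, synthetase levels in CP+siNC spanned from 3.22 ± 0.275 RPKM for FARSB to 89.4 ± 1.78 RPKM for TARS1. The order between genes depends on the gene lengths given with the counts. LARS1, at 183 CPM over 20639 bases, came to 8.88 RPKM, and RARS1, at 98.5 CPM over 3417 bases, to 28.8 RPKM. Whether these lengths match the transcripts of these cells was not tested. NARS1 followed at 77.3 ± 2.01 RPKM, then SARS1 at 47.7 ± 0.977 RPKM and EPRS1 at 43.3 ± 1.12 RPKM. In CP+siNAT10 the top of the order was closer, with TARS1 at 74.8 ± 1.05 RPKM, NARS1 at 69.0 ± 0.987 RPKM and EPRS1 at 52.0 ± 0.741 RPKM, now above SARS1 at 48.3 ± 0.452 RPKM. HARS1, at 10.5 ± 0.364 RPKM, and YARS1, at 10.4 ± 0.354 RPKM, did not differ beyond their spread in CP+siNC. This holds only per length, with 14155 bases for HARS1 and 9775 for YARS1. In CPM they stood apart, at 149 ± 5.16 and 102 ± 3.46.

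ATF4 binds DNA as a dimer with a C/EBP protein at the C/EBP-ATF response element, whose core reads TGATGNAA (N, any base). Promoters from 250 bases before to 50 after the start were taken from RefSeq (GRCh38.p14) and searched for these letters on both strands. An entry was matched for 32 of the 39 genes, and PSPH, SHMT2, PYCR1, NUPR1, LARS1, VARS1 and YARS1 had none. The core was present in 11 of the 32 genes, or 34.4%, and in 1217 of all 27305 genes with a promoter, or 4.46%. Counted by promoter, it was in 11 of 46 entries of the listed genes (23.9%) and in 3.62% of all 35116 promoters. ATF4 and its targets held it in 4 of 16 genes and the synthetases in 7 of 16. A match describes the letters and shows neither a bound site nor a cause, and the absence of a match, as in DDIT3, TRIB3 and ATF4, says only that the letters are not in this window.

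The 5 matches below are shown because genes with like letters in the promoter moved in different directions. They are written along the gene's own strand with 10 bases on each side, and capitals mark the core, as TGATGNAA or as its reverse complement TTNCATCA. In GRCh38.p14 the capitals lie at chr5:33440967-33440974 for TARS1 (plus strand), chr18:57621815-57621822 for NARS1 (minus), chr16:70289686-70289693 for AARS1 (minus), chr11:3057418-3057425 for CARS1 (minus) and chr7:97872469-97872476 for ASNS (minus).
TARS1: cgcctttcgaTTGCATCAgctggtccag
NARS1: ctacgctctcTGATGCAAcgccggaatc
AARS1: tttctcgcagTTGCATCAgccaagttag
CARS1: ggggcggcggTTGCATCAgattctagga
ASNS: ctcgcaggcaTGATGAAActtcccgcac
TARS1 and NARS1 fell, AARS1 and CARS1 rose, and ASNS did not pass, with the values given above. The same 8 letters TTGCATCA stood in TARS1, AARS1 and CARS1, and also in IARS1, which passed as lower, and MARS1, which rose. Their reverse complement TGATGCAA stood in NARS1 and in CEBPG, which fell. Of the 11 genes with the core, 5 rose, 5 fell and 1 did not pass, with a median log2 fold change of -0.04. Of the 21 with a promoter entry and no match, 7 rose, 6 fell and 8 did not pass, with a median of 0.02. Over all genes tested, 21.8% passed as higher and 22.3% as lower. Among tested genes averaging 10 CPM or more the shares were 30.7% and 31.1%.

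The lists of surrounding pathway genes below are read beside the 21.8% higher and 22.3% lower of all genes tested. Upstream of ATF4, the 16 genes of the eIF2 kinases, eIF2, its exchange factor eIF2B, the eIF2 phosphatase subunits and the GCN2 regulators GCN1 and IMPACT counted 4 higher (25%), 6 lower (37.5%) and 6 that did not pass, with a median log2 fold change of -0.02, or 0.01 with scaling to library size alone. EIF2AK2, the kinase PKR that senses double-stranded RNA, fell from 112 ± 1.20 to 74.5 ± 3.51 CPM (log2 fold change -0.59, adjusted p = 4.54e-13). EIF2AK3, the endoplasmic reticulum kinase PERK, rose from 18.3 ± 1.32 to 25.2 ± 0.300 CPM (0.46, adjusted p = 3.15e-07). GCN1, the ribosome-bound activator of the amino acid sensing kinase GCN2, rose from 175 ± 2.93 to 232 ± 2.78 CPM (0.41, adjusted p = 3.14e-11). EIF2AK2 was the 1 gene of the list past the 1.5-fold limit.

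Beyond the listed targets, 20 of 21 other known ATF4 targets could be tested, and 4 rose (20.0%), 8 fell (40.0%) and 8 did not pass (median log2 fold change -0.05). SLC7A11, the cystine importer, rose from 3.05 ± 0.228 to 5.46 ± 0.201 CPM (log2 fold change 0.84, adjusted p = 3.04e-06). CBS, which joins homocysteine and serine, rose from 5.64 ± 0.236 to 9.20 ± 0.0754 CPM (0.71, adjusted p = 5.52e-07). CTH, the next enzyme on the route to cysteine, fell from 5.26 ± 0.141 to 3.52 ± 0.358 CPM (-0.58, adjusted p = 3.61e-04). CHAC1, SESN2, ATF3 and the tRNA export factor XPOT did not pass.

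Of 5 further genes of the cytosolic charging machinery, 0 rose (0%), 2 fell (40.0%) and 3 did not pass by the edgeR quasi-likelihood test. At an unadjusted p under 0.05 the counts were 1 higher and 2 lower, DESeq2 called 0 in either direction, and scaling to library size alone gave 1 higher and 0 lower. EEF1E1, a scaffold of the multi-synthetase complex, had a log2 fold change of -0.19 (23.0 ± 0.419 to 20.3 ± 1.49 CPM, adjusted p = 0.0143). The 17 mitochondrial synthetases counted 4 higher (23.5%), 2 lower (11.8%) and 11 that did not pass, with a median of 0.09, so their share of higher genes was near that of all genes tested. Among those that passed and averaged 1 CPM or more, the largest changes were -0.48 in MARS2 (adjusted p = 0.0185), 0.47 in EARS2 (adjusted p = 3.77e-06) and 0.32 in LARS2 (adjusted p = 0.00596).

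In the folate and glycine pathway, 10 of 12 other genes could be tested, of which 2 rose (20.0%), 4 fell (40.0%) and 4 did not pass (median log2 fold change -0.07). ALDH1L2, a mitochondrial enzyme that oxidises formyl folate, rose from 13.2 ± 0.992 to 24.3 ± 1.53 CPM (0.88, adjusted p = 1.88e-11), the largest change among the tested genes of the pathway lists. The mitochondrial serine carrier SFXN1 fell from 70.1 ± 1.56 to 55.6 ± 0.673 CPM (-0.33, adjusted p = 7.39e-08). The folate carrier SLC25A32 fell from 72.8 ± 1.95 to 58.4 ± 1.53 CPM (-0.32, adjusted p = 1.87e-07).

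The ATF6 and XBP1 arms of the unfolded protein response, which run beside ATF4, counted 3 higher (17.6%), 6 lower (35.3%) and 8 that did not pass among 17 genes (median log2 fold change 0.02). SEL1L, an adaptor of endoplasmic reticulum degradation, fell from 67.2 ± 2.00 to 41.5 ± 1.11 CPM (-0.69, adjusted p = 1.61e-13). XBP1 rose from 42.7 ± 1.85 to 62.7 ± 1.60 CPM (0.56, adjusted p = 2.91e-11) and the co-chaperone DNAJC3 from 20.0 ± 1.65 to 28.4 ± 0.381 CPM (0.51, adjusted p = 4.51e-08). HERPUD1 also passed as higher (0.17, adjusted p = 0.0449). HSP90B1, the most abundant gene of the list, fell from 3043 ± 124 to 2526 ± 40.9 CPM (-0.27, adjusted p = 3.64e-07), as did DNAJB9 (-0.39, adjusted p = 3.66e-07), PDIA4 (-0.18, adjusted p = 3.18e-05), HYOU1 (-0.15, adjusted p = 6.01e-04) and ERN1 (-0.20, adjusted p = 0.0329). The chaperone HSPA5, at 669 ± 19.2 and 696 ± 19.4 CPM, did not pass (adjusted p = 0.179), nor did CALR (adjusted p = 0.637), PDIA6 (adjusted p = 0.455) or SDF2L1 (adjusted p = 0.591).

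**Figure D3:**
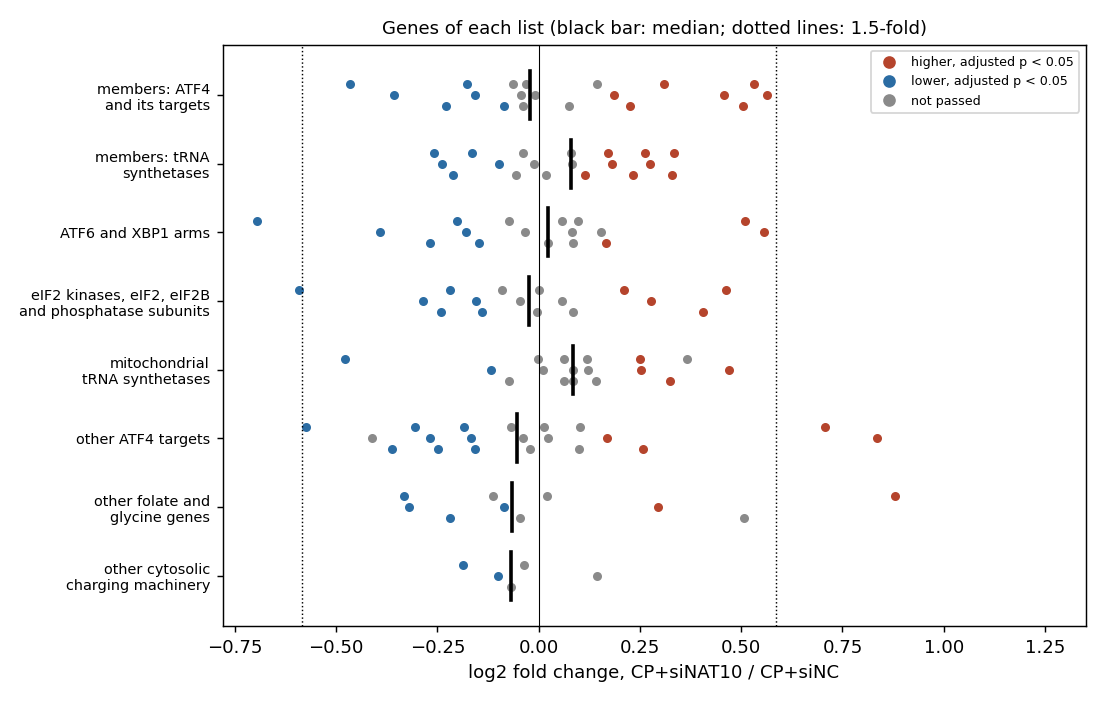
Log2 fold change of CP+siNAT10 over CP+siNC for each tested gene of the listed genes and of 6 lists of the surrounding pathways, with 1 point per gene and a black bar at each median. Red points passed as higher, blue as lower and grey did not pass; medians run from -0.07 for the other charging machinery to 0.09 for the mitochondrial synthetases, and every list but the other charging machinery holds red and blue points.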

How the data were processed

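Total RNA of 6 HK-2 samples was sequenced with a stranded mRNA kit. The deposited table holds raw counts per gene made by the authors, with Trimmomatic 0.36, STAR 2.5.3a, featureCounts of Subread 1.5.1, edgeR 3.12.1 and GRCh38 named in the submitters' processing notes. The kit adds unique molecular identifiers, which the methods say serve to remove duplicates. Whether the deposited counts were merged by them and whether counting used strand are not given in the sources used here. Counts were refitted in R 4.3.3 with edgeR 4.0.16 (TMM scaling, filterByExpr with a minimum count of 10, glmQLFit and glmQLFTest), and p-values were adjusted by Benjamini-Hochberg over all 19874 genes tested. The fit was tested on simulated data. Alternatives were RLE scaling, scaling to library size alone, 3 other filters, DESeq2 1.42.0, a replicate block, glmTreat and leaving out each library. Promoters were searched and figures drawn in Python 3.11.15 with matplotlib 3.10.9.

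All 39 genes were named. Given with library values were NAT10, ATF4, DDIT3, TRIB3, ASNS and, per role, the 2 genes with the largest log2 fold change in size among those with adjusted p under 0.05. Per pathway list, the 3 such genes averaging 1 CPM or more were named. Some genes of the pathway and marker lists, including some that this rule selects, are not reported here. Other names in the pathway lists and among the markers were chosen after their values were seen. The 39 genes and the lists were chosen with earlier results of these data known. The biological coefficient of variation was 3%.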

Additional observations from a re-analysis of the deposited data

How the results depend on the processing

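Of 26 genes called among the 39, 23 kept direction and call in all 13 refits, and 3 (PSAT1, STC2 and IARS1) lost the call in at least 1 with the sign kept. The count of higher genes was 15 except with library size alone (16), and that of lower genes ranged from 8 to 11. At 1.5-fold, the higher count was 1 with library size alone and 0 to 1 on leaving out a library; glmTreat gave 0 higher and 0 lower. Genes with adjusted p over the limit changed sign as follows: with library size alone, PHGDH 0.0060, CEBPB 0.028 and FARSA 0.026; with no filter, CEBPB 0.0017; without CP+siNC replicate 2, PSPH 0.053, CEBPB 0.0043 and SARS1 -0.00019; without CP+siNC replicate 3, ASNS 0.00053, CEBPB 0.0044 and FARSA 0.0043; without CP+siNAT10 replicate 2, ASNS 0.032 and CEBPB 0.030; without CP+siNAT10 replicate 3, TRIB3 -0.039 and FARSA 0.017. The cause was not tested. Over all fits that left out a library, TRIB3 ran from -0.039 to 0.14, ASNS from -0.10 to 0.032, PSPH from -0.10 to 0.053, CEBPB from -0.050 to 0.030, SARS1 from -0.00019 to 0.032 and FARSA from -0.040 to 0.017. Scaling to library size alone moved the median of all genes tested from 0.01 to 0.04, and that of ATF4 and its targets from -0.02 to 0.02. Counts for the genes averaging 10 CPM or more, 15 higher and 10 lower, were added after seeing the data.

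With a replicate block, 15 genes were higher and 10 lower, PSAT1 no longer passing (adjusted p = 0.0649). Libraries with the same number did not deviate together (correlation over genes -0.0355, 0.0178 and -0.154 for replicates 1, 2 and 3). Libraries with unlike numbers gave correlations from -0.128 to 0.154. Deviations from means of 3 libraries cannot decide whether the numbers pair the samples, and the labels do not say.

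Antisense genes overlap 18 of the 39 genes and same-strand genes 12. For 12 of the 39 genes, an antisense gene stood above 5% of the listed gene's level in CP+siNC. NUPR1 and TRIB3, the scarcest of the 39 genes at 0.878 and 4.37 CPM in CP+siNC, had the widest intervals. Whether depth or spread between libraries set their width was not tested.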

Other observations

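Ratios of levels per kilobase were taken for pairs chosen after their values were seen, and are given without a test. Their size depends on the gene lengths given with the counts, while the comparison between groups does not. SLC7A5 over its partner SLC3A2 was 0.549, 0.522 and 0.555 in CP+siNC and 0.997, 0.853 and 0.866 in CP+siNAT10. SLC7A11, the cystine importer that pairs with the same partner, over SLC3A2 was 0.0192, 0.0230 and 0.0201 in CP+siNC and 0.0392, 0.0441 and 0.0427 in CP+siNAT10. Neither ratio overlapped between groups, and both were higher in CP+siNAT10.

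ATF4 over DDIT3 was 3.63, 3.65 and 3.49 in CP+siNC and 2.24, 2.33 and 2.22 in CP+siNAT10, with groups well apart. FARSA over FARSB, the subunits of the phenylalanine enzyme, was 10.3, 8.97 and 11.3 in CP+siNC and 10.3, 9.50 and 8.66 in CP+siNAT10, and the groups overlapped. In CP+siNC, FARSA was at 79.1 ± 2.29 CPM over 2434 bases and FARSB at 21.7 ± 1.86 CPM over 6761 bases. The size of this ratio thus rests in part on the lengths.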
